A study of Mus musculus with 14 samples.

Results

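Gene expression was compared between germinal center (GC) B cells with a Tet2 knock-out (KO) and wild-type (WT) GC B cells, across all genes and through whole pathways. The members were the 7 GC B-cell libraries, chosen by their titles, of 14 libraries in the series. The other 7 libraries came from a knock-down experiment in B cells and were not analysed here. RNA had been extracted from spleen cells of C57BL/6 mice and sequenced as mRNA. The KO group held 4 libraries (replicates 2, 3, 4 and 5) and the WT group 3 libraries (replicates 1, 3 and 4), and per-library values below follow that order. Neither group carried any other labelled allele, agent or treatment. The deleted part of Tet2, the cells in which it was deleted, the purification of the GC B cells, the age of the mice and any pooling of animals are not stated by the labels. No label says that the replicates came from separate animals, so p-values measure only how far these libraries spread, which may be technical.

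TET2 is a dioxygenase that oxidises 5-methylcytosine in DNA to 5-hydroxymethylcytosine, the first step of active DNA demethylation, and it acts mainly at cytosines that precede a guanine (CpG sites). GC B cells are antigen-activated B cells that gather in follicles, divide rapidly, mutate their antibody genes and compete for help from follicular helper T cells. They cycle between a dark zone of division and a light zone of selection, leave as memory B cells or plasma cells, and are the cells from which many B-cell lymphomas arise.

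The total count per library ran from 27191862 to 30434184 reads in genes, and 17546 to 19141 genes had at least 1 count. The first principal component of the log levels took 42.0% of the variance and separated the 4 KO from the 3 WT libraries. Along the second component (18.7%) the WT libraries lay apart from each other while the KO libraries stayed close. The common biological coefficient of variation was 0.126 among KO and 0.147 among WT libraries. Tet2 itself read 11.9, 14.6, 13.3 and 14.5 CPM in the KO libraries and 13.4, 11.8 and 14.2 CPM in the WT libraries, where CPM is the TMM-normalised read level used throughout (log2 fold change 0.04, SE 0.13, adjusted p = 0.909). The groups overlapped, and a count over the whole gene does not check a deletion of a part of it. Tet3 (log2 fold change 0.27, SE 0.13, adjusted p = 0.296) and Tet1 (log2 fold change -0.04, SE 0.29, adjusted p = 0.961) did not pass the test either.

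The libraries carried most marker genes of the labelled cell type. Of the 22 GC B-cell markers listed, Mef2b stayed at 0 to 0.111 CPM and did not pass the filter for testing. Bcl6, the master repressor of the GC state, stood between 354 and 461 CPM in all 7 libraries. S1pr2, the receptor gene that holds B cells in the follicle centre, read 420 to 512 CPM. Of 21 tested GC B-cell markers, 1 was called higher and 4 lower in KO cells at an adjusted p under 0.05. The lower genes were Cd38 and Gpr183, which GC B cells keep low, Il9r, and Lmo2, which was listed as a marker they keep high. Lmo2 read 91.7, 80.1, 91.2 and 85.1 CPM in KO and 125, 111 and 122 CPM in WT libraries. The higher gene was Cd93, and the list held 0 higher calls when KO replicate 3, 4 or 5 or WT replicate 1 or 3 was left out. Over all 13600 genes tested, 1.92% were called higher and 4.57% lower, 6.49% in either direction, and 19.9% had an unadjusted p under 0.05. Markers of other cells were present as well, and those of macrophages and dendritic cells differed between the groups. Of 30 macrophage and dendritic cell markers 21 were tested, and 14 of them were called lower and 0 higher in KO cells, with a median log2 fold change of -1.02. Their summed level was 418 to 458 CPM in KO and 623 to 673 CPM in WT libraries, most of it from Cybb, an oxidase subunit gene that B cells also express. Emr1, which encodes F4/80, read 4.902, 4.24, 4.98 and 5.45 against 8.31, 14.001 and 14.95 CPM. Clec4f, a marker of liver macrophages, was at 0 in every library. Of 16 tested T-cell, NK and innate lymphoid markers, Thy1 was called higher (2.51) and Lck (-0.54) and Prf1 (-1.38) lower. Their summed level was 146 to 169 CPM in KO and 195 to 234 CPM in WT libraries, most of it from the kinase gene Lck at 141, 135, 139 and 117 CPM in KO and 206, 208 and 166 CPM in WT libraries, while the T-cell receptor complex gene Cd3e stayed at 0 to 0.201 CPM in all libraries. The 14 plasma cell markers summed to 2561 to 3262 CPM in KO and 2726 to 3475 CPM in WT libraries, and Txndc5, which was lower, was the single call among them. The 11 tested stromal, endothelial and erythroid markers summed to 755 to 916 CPM in KO and 643 to 819 CPM in WT libraries, most of it from Cr2 and Fcer2a, which B cells also express, with 0 calls by edgeR, 0 by DESeq2 and 0 by limma-voom and 3 at an unadjusted p under 0.05 in edgeR's test. Of the 4 Y-linked genes tested, all 4 were called higher, with log2 fold changes from 0.61 to 0.99, while Xist, expressed from the inactive X chromosome, read 291, 456, 269 and 423 CPM in KO and 493, 410.0 and 397 CPM in WT libraries, with overlapping groups and no call (log2 fold change -0.27, SE 0.20, adjusted p = 0.516). Every library thus held Xist together with Y-linked transcripts, of which Eif2s3y read 85.2, 73.02, 80.9 and 81.6 CPM in KO and 51.8, 45.2 and 58.1 CPM in WT libraries. The labels do not state the sex of the mice, and whether libraries mixed male and female cells was not tested. In bulk samples, fewer cells of a type and less RNA per cell cannot be told apart, and the part of these markers in the results below was not tested unless a value is given.

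In Tet2 KO cells more genes were lower than higher, and most changes of either kind were moderate. Of 13600 genes tested, 261 were higher and 622 lower in KO cells, so that lower genes made up 70.4% of the calls. The median change over all genes tested was 0.01 on the log2 scale and 51.7% of the genes had a positive value. The fold change stayed under 2-fold for 188 of the 261 higher genes (72%) and for 394 of the 622 lower genes (63.3%). The median absolute log2 fold change was 0.70 among higher and 0.77 among lower genes. All 4 KO libraries lay above all 3 WT libraries for 253 of the 261 higher genes and below them for 606 of the 622 lower genes. Over all genes tested, the groups lay apart in this way for 7.65% above and 10.6% below, or 18.3% together. A further 788 genes above and 837 below had separate groups without passing the test.

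The calls were spread over the whole range of expression. The share of genes called was 3.04% below a mean of 1 CPM, 7.55% between 1 and 3, 10.4% between 3 and 10 and 9.34% between 10 and 30 CPM. It was 5.66% between 30 and 100, 4.54% between 100 and 300, 5.45% between 300 and 1000 and 4.11% (3 of 73 genes, all lower) above 1000 CPM. Lower genes were the majority of the calls in each of these 8 bands, from 63.2% to 100%. The median absolute log2 fold change of the called genes shrank from 1.97 in the lowest band to 0.42 in the highest. In KO libraries the 622 lower genes held 2.78% to 2.82% of all normalised counts in tested genes, against 4.19% to 4.30% in WT libraries. The 261 higher genes held 1.52% to 1.67% of KO counts and 1.02% to 1.12% of WT counts. Both pairs of ranges were apart, and each describes genes that had been selected for that difference.

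**Figure D1:**
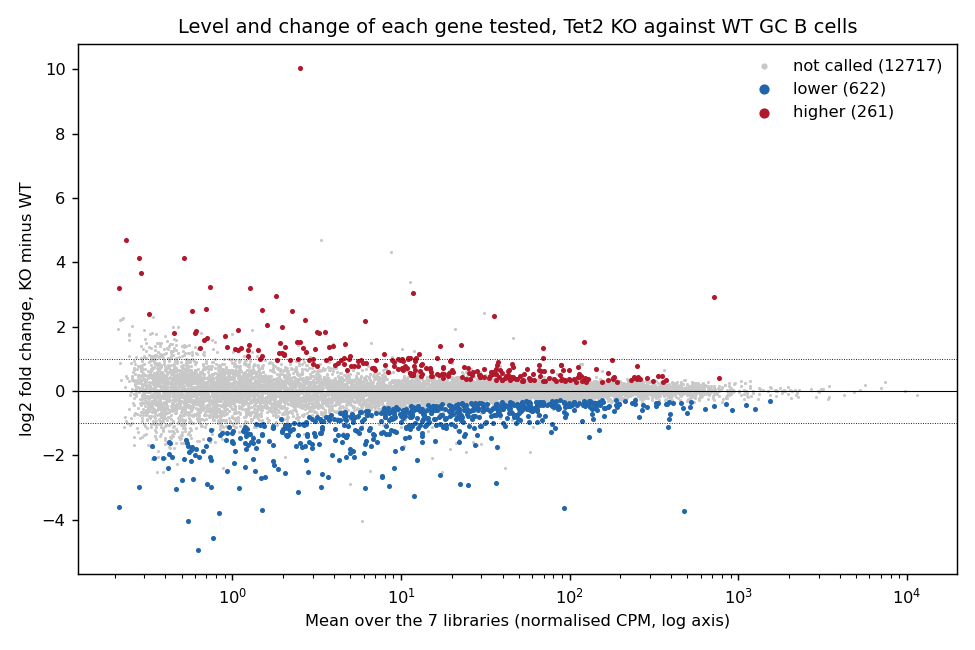
Level and change of the 13600 genes tested, with the mean normalised CPM over the 7 libraries on a log axis and the log2 fold change (KO minus WT) on the vertical axis. Grey points were not called, the 261 red points were called higher, the 622 blue points were called lower, and dotted lines mark a 2-fold change; the called genes crowd inside those lines at high levels.

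The Y-linked level and the macrophage marker level moved with the groups, and both bear on these counts. The mean log2 shift of the Y-linked genes ranged over 0.23 to 0.40 for KO libraries and over -0.60 to -0.30 for WT libraries. Fitted as a covariate, it left 1 gene called higher and 0 lower with edgeR, with 567 genes at an unadjusted p under 0.05, of which 410 were lower. The macrophage marker level, at -0.43 to -0.30 for KO libraries and 0.32 to 0.81 for WT libraries, left 5 higher and 36 lower calls, with 1675 genes at an unadjusted p under 0.05, of which 1010 were lower. Neither level overlapped between the groups, so each cannot be told apart from genotype in 7 libraries. The number of higher calls was 149 without WT replicate 3, 154 without KO replicate 5 and 362 without KO replicate 2, while the number of lower calls stayed between 453 and 582 in the 7 fits that left out 1 library.

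Moderate increases in genes of at least 50 CPM numbered 67, and several affected cytoskeletal and signalling genes. Lcp2 encodes SLP-76, an adaptor that links antigen receptors to phospholipase C. It read 108, 96.7, 122 and 112 CPM in KO and 62.4, 58.9 and 64.6 CPM in WT libraries, and no KO library fell within the WT range (log2 fold change 0.82, SE 0.09, adjusted p = 7.15e-05). Coro2a, of the coronin family of actin-binding proteins, read 127, 133, 147 and 141 CPM in KO and 84.9, 79.1 and 78.2 CPM in WT libraries (log2 fold change 0.76, SE 0.08, adjusted p = 6.05e-05). Among abundant genes (at least 200 CPM) ranked without antigen receptor genes, gene models and predicted genes, gelsolin (Gsn) had the largest increase. It severs and caps actin filaments. Its level was 263, 281, 343 and 331 CPM in KO and 183, 172 and 172 CPM in WT libraries, with a log2 fold change of 0.79 (SE 0.10). Dhx40, a putative RNA helicase gene of the DEAH-box family, rose evenly, from 108, 107 and 102 CPM in WT to 165, 163, 175 and 181 CPM in KO libraries (log2 fold change 0.70, SE 0.08, adjusted p = 7.39e-05). The spread within each of these groups was small beside the distance between them. Separate groups and a small p were part of the choice of these genes.

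Other moderate increases included genes of chromatin proteins. Cecr2, which encodes a bromodomain protein of a chromatin remodeller, rose by 0.57 on the log2 scale (SE 0.09). Phf19, which encodes a Tudor-domain partner of polycomb repressive complex 2, was steady in the WT libraries at 241, 242 and 239 CPM and read 314, 328, 309 and 331 CPM in the KO libraries (log2 fold change 0.41, SE 0.08, adjusted p = 0.00326). Further moderate increases by p were Pear1, D8Ertd82e, Fam78a, Sepp1 and Rtn4ip1, with log2 fold changes of 0.80, 0.61, 0.63, 0.64 and 0.45. Above 200 CPM, 15 genes were higher with separate groups. Coro7, a second coronin gene, read 334, 389, 378 and 417 CPM in KO and 269, 271 and 287 CPM in WT libraries (log2 fold change 0.46, SE 0.09, adjusted p = 0.00444). Rgs2, a regulator that shortens G protein signals, read 432, 412, 353 and 401 CPM in KO and 315, 252 and 290.0 CPM in WT libraries (log2 fold change 0.48, SE 0.10, adjusted p = 0.00605). Exons of Lcp2, Coro2a, Fam78a and Coro7 overlap another gene on the other strand, and those of Pear1 and Fam78a overlap one on the same strand. Reads of such partners cannot be told apart in counts made without strand, which held for 45 of the 239 genes covered by the naming rule with the other strand and for 13 with the same strand.

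Moderate decreases of at least 50 CPM were more numerous, at 139 genes, and several of those with the smallest p encode surface proteins of lymphocytes. Cd38, an ectoenzyme of NAD metabolism on the B-cell surface, read 34.8, 39.6, 42.2 and 45.5 CPM in KO and 71.8, 78.7 and 87.7 CPM in WT libraries (log2 fold change -0.97, SE 0.10, adjusted p = 4.24e-05). Gpr18, a G protein-coupled receptor gene of lymphocytes, read 49.2, 51.1, 55.1 and 50.9 CPM in KO and 83.6, 88.7 and 84.95 CPM in WT libraries (log2 fold change -0.73, SE 0.08, adjusted p = 5.51e-05). Ly6d, a GPI-anchored antigen of the B lineage, read 109, 114, 134 and 132 CPM in KO and 182, 198 and 243 CPM in WT libraries (log2 fold change -0.76, SE 0.11, adjusted p = 0.000394). In each of the 3 genes the highest KO library lay under the lowest WT library, because separate groups were part of the choice. Cd72, Faim3 and Basp1 were also among the 12 moderate decreases with the smallest p.

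Enzymes and membrane proteins were also among these 12. Blvrb encodes a biliverdin and flavin reductase, and its level was 283, 274, 312 and 289.6 CPM in KO and 440.0, 568 and 569 CPM in WT libraries (log2 fold change -0.86, SE 0.10, adjusted p = 7.15e-05). Snn, the gene of the small membrane protein stannin, changed by -0.87 (SE 0.11) and shares exonic sequence with Txndc11 on the other strand. Mpeg1 (-0.77, SE 0.09), the gene of the pore-forming protein perforin-2, and Rgs10 (-0.76, SE 0.11) were lower too, and Mpeg1 belongs to the macrophage marker list described above. Above 200 CPM, 32 genes were lower with separate groups. H2-Q6 and H2-K1, both MHC class I heavy chain genes, and Txndc5, a protein disulfide isomerase gene of the endoplasmic reticulum, were among the 8 with the largest decreases. Antigen receptor genes were left out of this ranking but not of the count of 32. H2-Q6 read 195, 243, 163 and 181 CPM in KO and 418, 294 and 316 CPM in WT libraries and has near-identical copies, between which reads can be split. Txndc5 read 537, 547, 563 and 463 CPM in KO and 680.2, 914 and 734 CPM in WT libraries (log2 fold change -0.56, SE 0.11, adjusted p = 0.00409).

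**Figure D2:**
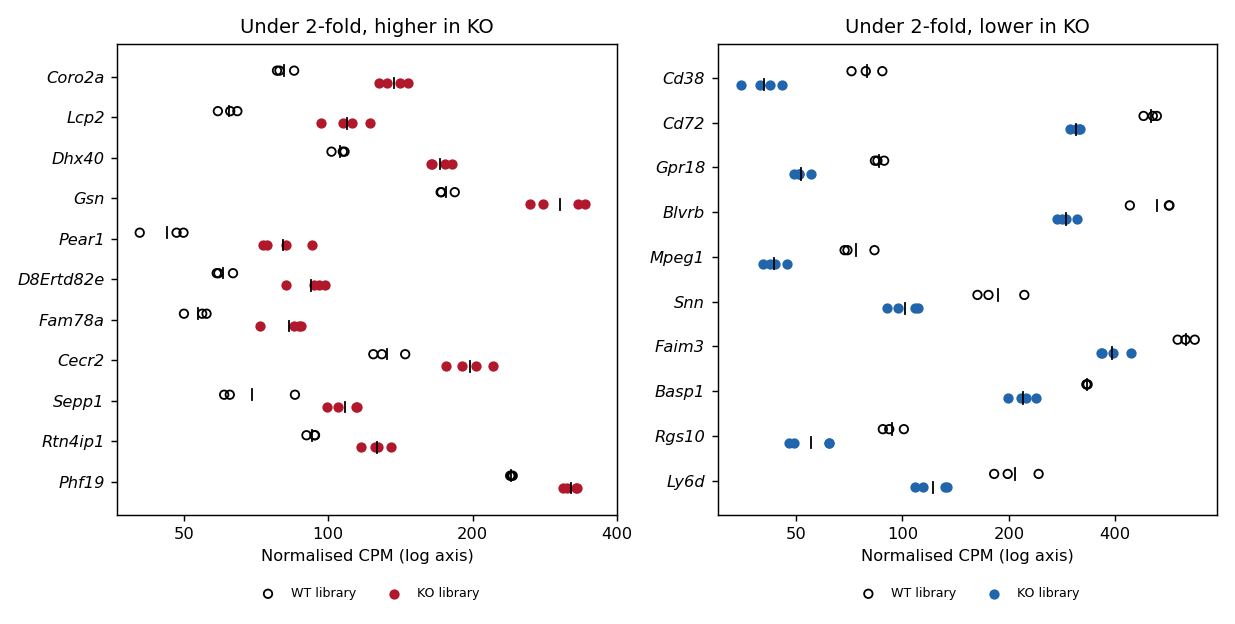
Normalised CPM, on a log axis, of called genes with the smallest p in each direction among those under 2-fold and at or above 50 CPM. Open circles are the 3 WT libraries, filled circles the 4 KO libraries and short bars the group means; the groups are apart in every row because separate groups were part of the choice, for example Dhx40 at 102 to 108 CPM in WT and 163 to 181 CPM in KO libraries.

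TET2 acts on methylated CpG sites, so the start-site windows of 4 of these moderate genes are shown to display their CpG content. The windows run from 250 bases before to 50 bases after the annotated start in RefSeq, build GRCm38.p6. In each direction they are the CpG-rich and the CpG-poor gene with the smallest p. CpG dinucleotides are in capitals, and each window is written 5′ to 3′ on the strand of the gene.
Dhx40, chr11:86807611-86807910, minus strand: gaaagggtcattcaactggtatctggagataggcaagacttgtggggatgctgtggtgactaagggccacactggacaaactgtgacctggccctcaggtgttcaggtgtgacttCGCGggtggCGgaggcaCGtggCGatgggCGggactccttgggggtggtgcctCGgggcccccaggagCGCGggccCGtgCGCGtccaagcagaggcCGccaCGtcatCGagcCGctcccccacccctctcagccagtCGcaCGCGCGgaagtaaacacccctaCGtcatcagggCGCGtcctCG
Lcp2, chr11:34046678-34046977, plus strand: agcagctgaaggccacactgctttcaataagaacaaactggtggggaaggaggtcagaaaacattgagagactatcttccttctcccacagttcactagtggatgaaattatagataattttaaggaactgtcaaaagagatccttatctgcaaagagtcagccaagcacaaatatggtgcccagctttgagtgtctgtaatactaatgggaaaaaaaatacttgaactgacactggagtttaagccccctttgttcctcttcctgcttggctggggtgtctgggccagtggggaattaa
Snn, chr16:11066048-11066347, plus strand: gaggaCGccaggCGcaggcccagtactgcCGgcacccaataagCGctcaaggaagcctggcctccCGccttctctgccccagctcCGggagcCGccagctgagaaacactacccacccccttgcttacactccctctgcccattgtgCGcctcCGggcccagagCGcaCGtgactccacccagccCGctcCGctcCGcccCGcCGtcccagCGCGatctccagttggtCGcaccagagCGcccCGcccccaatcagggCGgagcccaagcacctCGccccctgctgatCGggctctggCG
Cd38, chr5:43868559-43868858, plus strand: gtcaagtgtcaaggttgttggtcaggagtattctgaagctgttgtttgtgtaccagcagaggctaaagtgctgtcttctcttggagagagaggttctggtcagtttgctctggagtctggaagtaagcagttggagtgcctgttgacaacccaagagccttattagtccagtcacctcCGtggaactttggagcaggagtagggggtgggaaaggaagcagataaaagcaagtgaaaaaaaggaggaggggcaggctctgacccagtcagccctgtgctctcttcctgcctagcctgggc
The motif searched was CG, which is its own reverse complement. Over all 32851 windows of this length in the table, the median was 7 CpGs. The Dhx40 window holds 24 CpGs, and 20% of all windows hold at least as many. The Snn window holds 25, and 18.4% of windows hold at least as many. At the other end, the Lcp2 window holds 0, as do 5.43% of windows, and the Cd38 window holds 1, with 14.1% of windows at 1 or 0. Both directions of change thus included a CpG-rich and a CpG-poor start, by the way the 4 genes were chosen. No methylation was measured in these libraries, and the comparison of CpG content over all called genes was not made because only 72% of the higher and 74.4% of the lower genes had a window in the table.

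The remaining genes are described by function, through 75 lists of related genes with 1968 distinct members tested. These lists held 68 of the higher and 174 of the lower calls. Of the 75 lists, 26 held only lower calls, 10 only higher calls, 31 both and 8 none. Of 75 counts of 1 to 3 calls in a list and direction, 45 were smaller in at least 1 fit that left out a library. Genes given with an adjusted p (edgeR's quasi-likelihood test, Benjamini-Hochberg over all 13600 genes) that passed 0.05 stayed called whichever of the 7 libraries was left out, unless stated. The counts below are read against 4.57% lower and 1.92% higher over all genes, and the medians against 0.01. Groups lay apart for 97.4% of all lower and 96.9% of all higher calls. Separate groups stated below for called genes therefore add little beyond the call. Exons of Evl, Prkca, Hvcn1, Tox, Pou6f1, Bcat1, Glul, Slc7a7, Slc30a4, Rasgrp4, Tnfrsf18, Stat5a, Tapbp, Ldb1, Creg2, Myo15b, Reln, Gfi1, Snn, Cd52, Cd55, Cry2, Csf1r, Ctsb, Cxcl10, Cyp2u1, Dbp, Gng12, Hopx, Itgad, Lss, Ptpn3, Unc13a, Tef, Usp2, Xist and Zeb2 overlap another gene on the other strand, and those of Hdac5, Snrpn, Glul, Cyp4v3, Lck, Xist, Zeb2 and Tapbp overlap one on the same strand, so reads of these genes and their partners cannot be told apart.

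**Figure D3:**
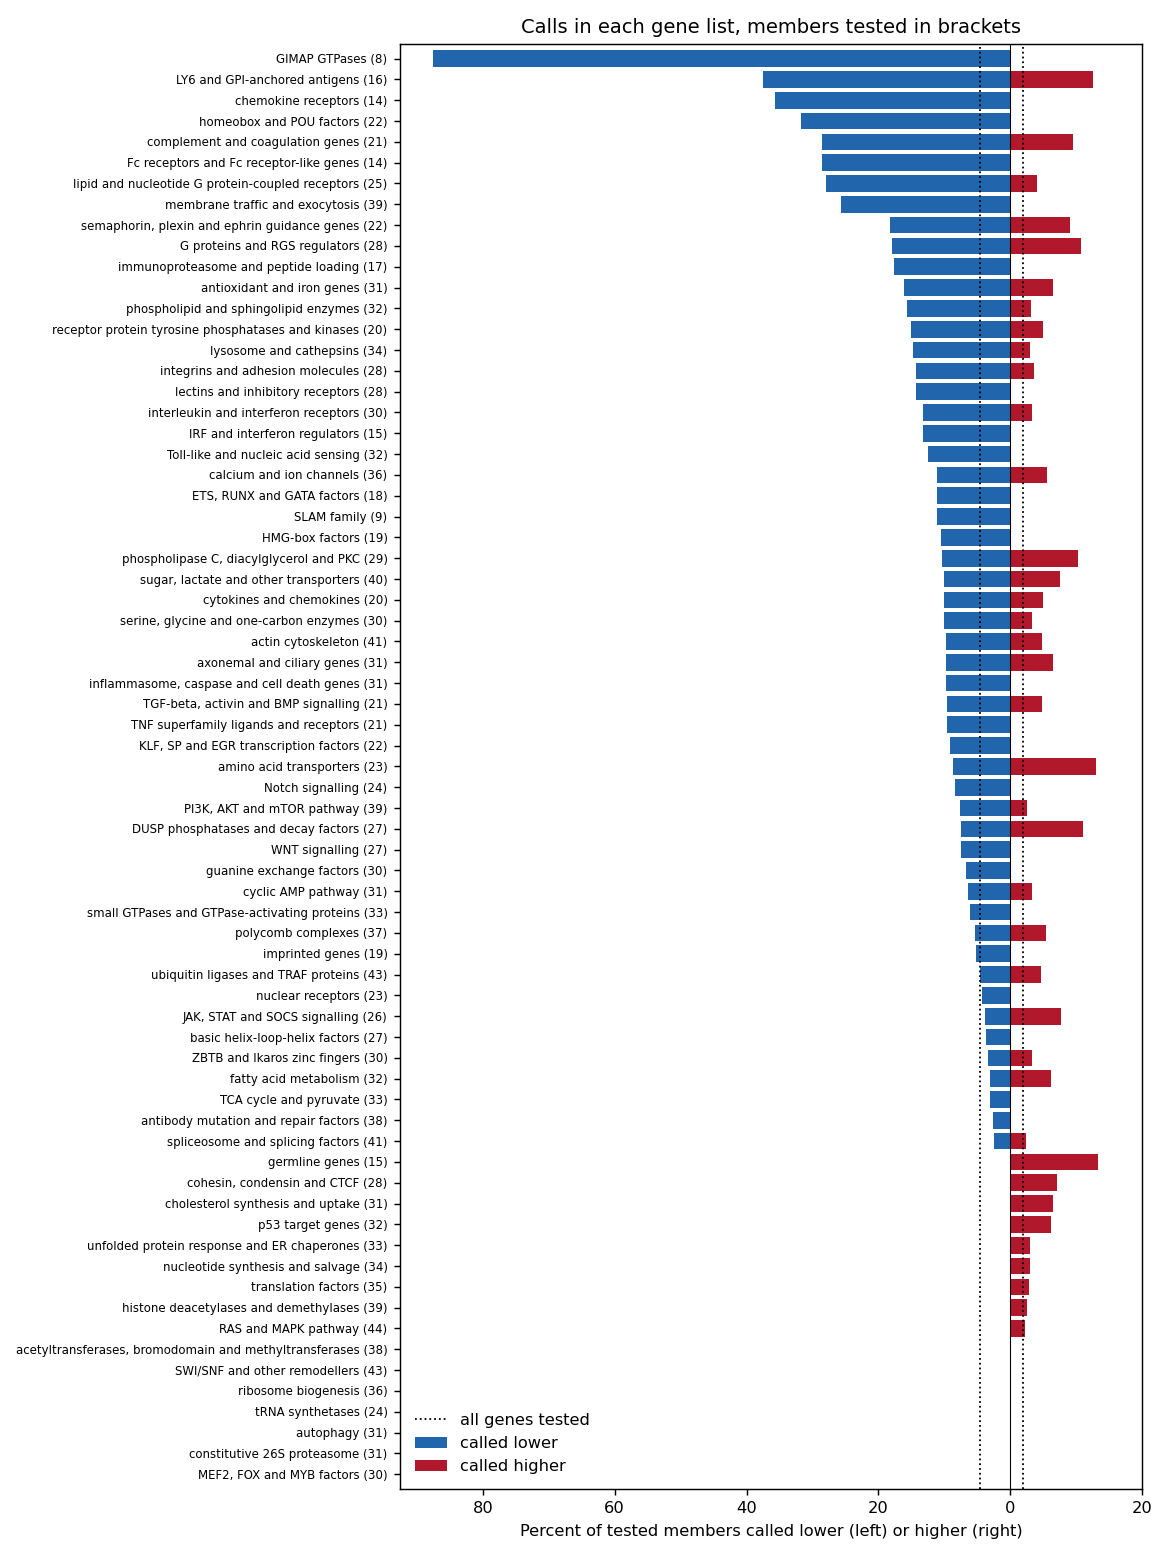
Percent of the tested members of each gene list that were called lower (blue, to the left) or higher (red, to the right), with the number of tested members in brackets and the marker lists left out. The dotted lines mark the shares over all 13600 genes tested, 4.57% and 1.92%; GIMAP GTPases have the longest bar with 7 of 8 members, and the proteasome, ribosome biogenesis and SWI/SNF lists have no bar.

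Receptors that position B cells in lymphoid tissue held more lower than higher calls. Of 14 chemokine receptor genes tested, 5 were called lower and 0 higher, with a median of -0.72. Beside Cxcr3, the receptor gene for interferon-induced chemokines, they included Ccr7, Ccr1 and Ccr3. Ccr7, which guides lymphocytes to T-cell zones, read 13.7, 18.03, 14.9 and 19.7 CPM in KO and 27.9, 26.1 and 38.2 CPM in WT libraries (log2 fold change -0.89, SE 0.15, adjusted p = 0.00232). Ccr1 and Ccr3 were rare transcripts, and each lost its call in more than 1 of the 7 fits that left out a library. The number of lower calls in this list was 2 without KO replicate 3, 4 or 5 or WT replicate 1. Of 25 receptors for lipids and nucleotides, 7 were called lower and 1 higher, with a median of -0.46. Adora2a, a receptor gene for adenosine, read 3.37, 3.61, 2.44 and 3.71 CPM in KO and 6.57, 6.37 and 8.01 CPM in WT libraries (log2 fold change -1.09, SE 0.19, adjusted p = 0.00228). S1pr5, a receptor gene for sphingosine-1-phosphate, was close to absent in KO libraries at 0.0333, 0.164, 0.174 and 0.134 CPM, against 1.26, 1.43 and 2.67 CPM in WT (log2 fold change -3.77, SE 0.47, adjusted p = 0.000141). Gpr183 encodes the oxysterol receptor EBI2, which draws B cells to the outer follicle, and it read 10.004, 13.6, 11.1 and 13.1 CPM in KO and 16.3, 19.04 and 21.8 CPM in WT libraries (log2 fold change -0.67, SE 0.14, adjusted p = 0.00827). For all 3 genes the highest KO library lay below the lowest WT library. S1pr1, Cnr2 and Gpr34 were called lower as well. Cysltr1, a receptor gene for cysteinyl leukotrienes, moved the other way, from 0.483, 0.265 and 0.371 CPM in WT to 2.701, 2.43, 3.03 and 3.45 CPM in KO libraries (log2 fold change 2.94, SE 0.30, adjusted p = 3.9e-05). Compared per kilobase of exon, Gpr18 stood above Ccr7 in both genotypes, at 39.4 against 8.38 CPM per kilobase in KO and 65.5 against 15.5 in WT cells.

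The G proteins and regulators behind these receptors moved in both directions. Of 28 tested, 3 were higher and 5 lower, with a median of 0.01. Rgs3, a GTPase-accelerating regulator gene, read 5.17, 4.96, 4.71 and 5.22 CPM in KO and 17.8, 17.3 and 16.2 CPM in WT libraries (log2 fold change -1.77, SE 0.13, adjusted p = 1.47e-06), and Grk5, which encodes a kinase that desensitises receptors, read 5.14, 4.56, 4.84 and 4.92 CPM in KO and 10.8, 11.4 and 12.9 CPM in WT libraries (log2 fold change -1.26, SE 0.14, adjusted p = 7.15e-05). The KO libraries of both genes lay close together and below every WT library. Gna15, which encodes a G protein subunit of blood cells, read 14.4, 14.9, 18.6 and 18.9 CPM in KO and 8.31, 7.56 and 6.64 CPM in WT libraries (log2 fold change 1.15, SE 0.15, adjusted p = 0.000171). Rgs1, a regulator that dampens chemokine responses, was higher at 102, 92.9, 64.9 and 116 CPM in KO and 36.1, 27.2 and 48.6 CPM in WT libraries, but this call was lost on leaving out KO replicate 2, 3 or 5 or WT replicate 1 (adjusted p up to 0.118). Gng12 and Gnb4 were lower calls as well, and the number of lower calls was 3 without WT replicate 3.

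Adhesion and cytoskeletal genes held calls in both directions. Of 28 integrins and adhesion molecules, 4 were lower and 1 higher, with a median of -0.13. Itgax (CD11c) read 2.001, 2.36, 2.58 and 2.41 CPM in KO and 8.15, 14.5 and 21.7 CPM in WT libraries and Itgam (CD11b) 2.201, 3.02, 2.72 and 2.94 CPM in KO and 4.22, 7.73 and 10.1 CPM in WT libraries. Both belong to the macrophage marker list that was lower in the same libraries, and WT replicate 1 was the lowest WT library for both. Itga6 was called lower as well, and there were 2 lower calls in this list without KO replicate 4. Cadm1, an adhesion molecule gene, was higher (1.17, SE 0.26), and it lost its call on leaving out WT replicate 1 (adjusted p up to 0.0503). Of 41 actin cytoskeleton genes, 2 were higher (Coro2a and Gsn) and 4 lower, with a median of -0.10. Capg, a capping relative of gelsolin, moved opposite to it, at 48.9, 49.6, 58.5 and 57.8 CPM in KO and 104, 106 and 149 CPM in WT libraries (log2 fold change -1.16, SE 0.12, adjusted p = 6.74e-05). Evl, which encodes a filament-elongating protein of the Ena/VASP family, was even within groups at 162, 169, 161 and 164 CPM in KO and 222, 220.1 and 219.8 CPM in WT libraries (log2 fold change -0.43, SE 0.07, adjusted p = 0.002). Myo1f and Vim were the other lower calls, and the number of lower calls was 2 without WT replicate 3 or 4. The regulators of small GTPases were called at 6.67% and 6.06%, close to the 6.49% over all genes. Arhgef3 was one of 2 lower calls among 30 exchange factors (-0.50, SE 0.10), and Arhgap24 (-1.06, SE 0.13) and Srgap3 (-1.93, SE 0.23) were those among 33 GTPases and activating proteins. Guidance genes, which steer cells as well as axons, gave 2 higher and 4 lower calls among 22, with 2 lower calls without KO replicate 4. Plxnd1, a semaphorin receptor gene, read 3.63, 4.07, 4.46 and 4.32 CPM in KO and 8.22, 9.39 and 13.8 CPM in WT libraries (log2 fold change -1.34, SE 0.19, adjusted p = 0.000352), and Sema4f, a semaphorin gene, read 1.87, 1.81, 1.81 and 2.11 CPM in KO and 0.967, 0.664 and 0.705 CPM in WT libraries (log2 fold change 1.28, SE 0.28, adjusted p = 0.0106).

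Cytokine receptors held more lower than higher calls. Among 30 interleukin and interferon receptor genes, 4 were lower (Il2rb, Csf1r, Il9r and Crlf2) and 1 higher (Lifr), with a median of -0.17. Csf1r belongs to the macrophage marker list that was lower in the same libraries. Il2rb, the shared beta chain gene of the interleukin-2 and interleukin-15 receptors, read 7.97, 8.21, 8.89 and 6.22 CPM in KO and 13.95, 17.2 and 18.5 CPM in WT libraries (log2 fold change -1.08, SE 0.15, adjusted p = 0.000365). Il9r, an interleukin receptor gene of GC and memory B cells, read 67.3, 67.01, 57.2 and 93.6 CPM in KO and 129.5, 108 and 136 CPM in WT libraries (log2 fold change -0.81, SE 0.15, adjusted p = 0.00701). KO replicate 5 was the highest KO library for Il9r and still lay below the WT libraries. Downstream, Stat5a and Stat5b were both called higher and Socs5, a suppressor of cytokine signalling, lower, among 26 genes with a median of -0.05. Socs5 read 3.03, 5.15, 3.69 and 5.42 CPM in KO and 10.7, 9.46 and 8.38 CPM in WT libraries (log2 fold change -1.13, SE 0.20, adjusted p = 0.00247). The STAT changes were small, with Stat5b at 0.36 (SE 0.09) and Stat5a at 0.31 (SE 0.08). Of these, the call of Stat5b was lost on leaving out KO replicate 5 or WT replicate 1 or 4 (adjusted p up to 0.0753), and the call of Stat5a was lost on leaving out KO replicate 3, 4 or 5 or WT replicate 1, 3 or 4 (adjusted p up to 0.145). Of 20 cytokine and chemokine genes, Il10 and Cxcl10 were lower and Spp1 higher. Cxcl10, an interferon-induced chemokine gene and a ligand of CXCR3, read 1.23, 0.689, 0.802 and 0.9703 CPM in KO and 5.22, 5.28 and 5.42 CPM in WT libraries (log2 fold change -2.52, SE 0.23, adjusted p = 1.34e-05). Its exons overlap those of Art3 on the other strand, which was also called lower. Of 21 TNF superfamily genes, Cd70 and Tnfrsf18 were lower and 0 higher. Tnfrsf18, which encodes the receptor GITR, read 1.17, 1.48, 1.78 and 1.51 CPM in KO and 3.09, 2.85 and 3.23 CPM in WT libraries (log2 fold change -1.04, SE 0.23, adjusted p = 0.011).

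Some sensors of microbes and of antibody were called lower, and none higher. Of 32 Toll-like receptor and nucleic acid sensing genes, 4 were lower, with a median of -0.19. Tlr3, the endosomal receptor gene for double-stranded RNA, read 1.67, 1.25, 1.92 and 2.04 CPM in KO and 8.89, 5.61 and 8.495 CPM in WT libraries (log2 fold change -2.16, SE 0.22, adjusted p = 3.9e-05). Nod1, a cytosolic sensor gene for bacterial peptidoglycan, read 11.8, 15.5, 14.7 and 12.9 CPM in KO and 31.9, 25.4 and 26.8 CPM in WT libraries (log2 fold change -1.03, SE 0.13, adjusted p = 0.000118), and Tlr6 read 7.04, 7.22, 5.79 and 5.96 CPM in KO and 14.3, 11.8 and 9.72 CPM in WT libraries (log2 fold change -0.88, SE 0.16, adjusted p = 0.00325). All 3 had separate groups. Of 14 Fc receptor and Fc receptor-like genes, 4 were lower, with a median of -0.52. Fcrl5, which encodes an immunoglobulin-binding inhibitory receptor, read 11.7, 12.9, 13.04 and 10.97 CPM in KO and 26.2, 25.1 and 28.8 CPM in WT libraries (log2 fold change -1.13, SE 0.11, adjusted p = 2.72e-05). Fcrla, an intracellular relative in GC B cells, read 234, 237, 269.7 and 240.0 CPM in KO and 336, 386 and 322 CPM in WT libraries (log2 fold change -0.50, SE 0.09, adjusted p = 0.00229). Fcgr2b, the inhibitory IgG receptor gene, changed by -0.29 (SE 0.08), and the call of Fcgr2b was lost on leaving out KO replicate 2, 3 or 5 or WT replicate 1, 3 or 4 (adjusted p up to 0.104). Inhibitory and lectin receptors gave 4 lower calls among 28 (Cd72, Cd200, Clec2i and Havcr1), with a median of -0.18. Cd200, whose protein delivers an inhibitory signal to myeloid cells, read 18.7, 16.2, 17.7 and 17.2 CPM in KO and 32.1, 24.1 and 26.7 CPM in WT libraries (log2 fold change -0.66, SE 0.12, adjusted p = 0.00251).

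The GIMAP family was lower almost throughout. These GTPases of immunity-associated proteins sit on organelle membranes of lymphocytes and are known for a role in lymphocyte survival, and their genes lie together on chromosome 6. All 8 members were tested and had negative values, 7 of them were called lower, and the median was -0.41. Gimap4 (chromosome 6, 48684549 to 48692060, GRCm38) read 103, 95.8, 92.3 and 90.4 CPM in KO and 218, 217 and 231 CPM in WT libraries (log2 fold change -1.22, SE 0.08, adjusted p = 4.03e-07). Gimap7 read 30.8, 26.3, 26.7 and 27.7 CPM in KO and 56.9, 59.3 and 61.1 CPM in WT libraries (log2 fold change -1.08, SE 0.09, adjusted p = 5.54e-06), and Gimap3 read 21.7, 27.4, 21.4 and 27.7 CPM in KO and 50.04, 43.5 and 54.3 CPM in WT libraries (log2 fold change -1.004, SE 0.12, adjusted p = 9.55e-05). The groups of these 3 genes were far apart beside the spread within each. Gimap8, Gimap6, Gimap5 and Gimap1 changed less, by -0.44, -0.39, -0.39 and -0.30. Of these, the call of Gimap8 was lost on leaving out WT replicate 1 (adjusted p up to 0.0655), the call of Gimap6 was lost on leaving out WT replicate 4 (adjusted p up to 0.0602), the call of Gimap5 was lost on leaving out WT replicate 3 or 4 (adjusted p up to 0.0779), and the call of Gimap1 was lost on leaving out KO replicate 2, 3 or 4 or WT replicate 1, 3 or 4 (adjusted p up to 0.105). Gimap9 (log2 fold change -0.30, adjusted p = 0.0516) was the member that edgeR's test did not call. Per kilobase of exon, Gimap4 stood at 120.9 CPM in WT and 51.9 CPM in KO cells, Gimap3 at 54.4 and 27.1, Gimap7 at 46.5 and 21.98 and Gimap8 at 33.3 and 24.6. Gimap4 was the highest of these 4 in both genotypes, and Gimap7 passed below Gimap8 in KO cells. Exons of Gimap1, Gimap5 and Gimap7 overlap those of Gm28053 on the same strand, and exons of Gimap1 overlap those of Gimap1os on the other strand. Without WT replicate 4 the number of lower calls in the family was 4. The summed level of the family was 766 to 815 CPM in KO and 1114 to 1222 CPM in WT libraries.

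Small surface antigens with a lipid anchor also moved. Of 16 tested LY6 and other GPI-anchored antigen genes, 6 were lower and 2 higher, with a median of -0.31, and 3 were lower without WT replicate 4. Beside Ly6d, described above, these were Art3, Ly6c2, Cd55, Cd52 and Ly6e, of which Cd55 protects cells from complement. Thy1, better known from T cells, was rare but higher, at 2.401, 2.46, 2.27 and 2.11 CPM in KO and 0.226, 0.332 and 0.668 CPM in WT libraries (log2 fold change 2.51, SE 0.35, adjusted p = 0.000351). Of 21 complement and coagulation genes, 6 were lower and 2 higher, with a median of -0.18 and 3 lower calls without WT replicate 1 or 4. C1qa, C1qb and C1qc, the subunits of complement C1q, are in the macrophage marker list. Serpinb1a, a protease inhibitor gene, read 31.4, 35.4, 41.5 and 38.5 CPM in KO and 55.998, 60.3 and 82.6 CPM in WT libraries (log2 fold change -0.85, SE 0.13, adjusted p = 0.00122), and its relative Serpinb6b read 21.8, 19.3, 20.9 and 21.04 CPM in KO and 9.99, 11.01 and 9.76 CPM in WT libraries (log2 fold change 1.02, SE 0.12, adjusted p = 7.15e-05), so that 2 inhibitors of one family moved in opposite directions.

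**Figure D4:**
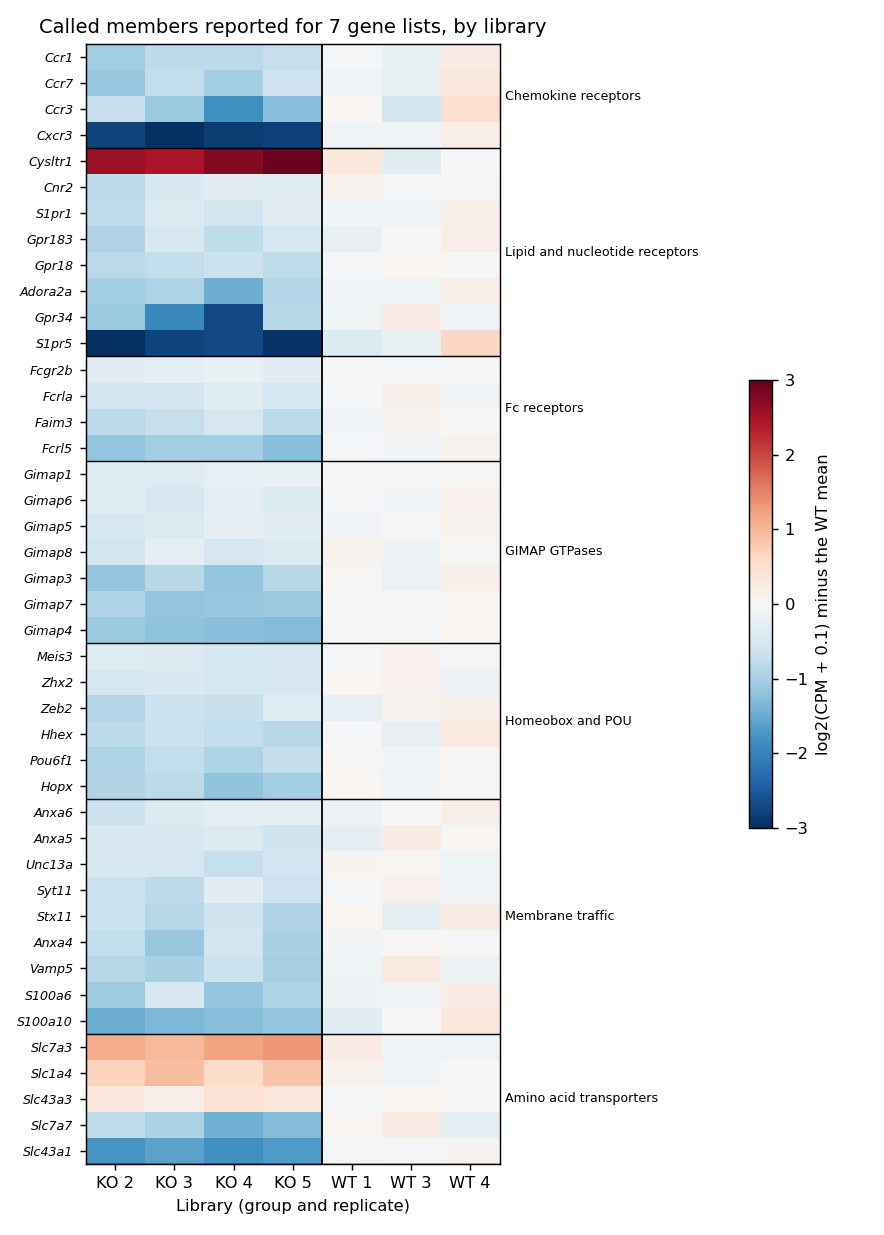
Called members reported here of 7 gene lists in each library, as log2(CPM + 0.1) minus the mean of the WT libraries, with KO replicates 2 to 5 on the left and WT replicates 1, 3 and 4 on the right. Blue marks lower and red higher levels; the KO columns are blue except for Cysltr1 and 3 amino acid transporters, and S1pr5, Cxcr3 and Cysltr1 have the deepest colours.

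Intracellular signalling lists held calls in both directions, with a share called of 20.7% in the phospholipase C list and 2.27% in the RAS and MAPK list, against 6.49% over all genes. Of 44 RAS and MAPK genes, 1 was higher and 0 lower, with a median of 0.05. That gene was Rasgrp4, a RAS exchange factor, at 14.1, 14.2, 11.9 and 16.2 CPM in KO and 7.31, 5.24 and 8.01 CPM in WT libraries (log2 fold change 1.04, SE 0.17, adjusted p = 0.00109). Of 39 genes of the PI3K, AKT and mTOR pathway, 3 were lower and 1 higher. Pik3r6, a regulatory subunit gene of the gamma isoform, read 1.57, 1.67, 0.732 and 1.47 CPM in KO and 2.84, 4.11 and 6.49 CPM in WT libraries (log2 fold change -1.71, SE 0.31, adjusted p = 0.00352). Phospholipase C and protein kinase C genes split evenly, with 3 higher and 3 lower among 29. Plcd3, a phospholipase C gene, read 12.1, 11.6, 11.9 and 11.5 CPM in KO and 37.1, 31.9 and 37.8 CPM in WT libraries (log2 fold change -1.60, SE 0.10, adjusted p = 4.03e-07). Prkca, a classical protein kinase C gene, was higher at 50.98, 56.8, 52.2 and 47.1 CPM in KO and 30.6, 35.5 and 32.2 CPM in WT libraries (log2 fold change 0.66, SE 0.10, adjusted p = 0.000514), and Prkce, a calcium-independent relative, was lower at 14.1, 20.8, 19.8 and 22.02 CPM in KO and 33.9, 32.8 and 28.3 CPM in WT libraries (log2 fold change -0.72, SE 0.14, adjusted p = 0.00436). KO and WT libraries were apart for all 3 genes. Of 36 calcium and ion channel genes, 4 were lower and 2 higher. Hvcn1, the voltage-gated proton channel gene of B cells, read 392, 411, 497 and 444 CPM in KO and 567, 685 and 609 CPM in WT libraries (log2 fold change -0.51, SE 0.10, adjusted p = 0.00441), and Lrrc8c, a volume-regulated channel gene, read 48.9, 43.8, 46.7 and 47.1 CPM in KO and 63.6, 73.2 and 67.9 CPM in WT libraries (log2 fold change -0.55, SE 0.08, adjusted p = 0.00079). P2rx1, an ATP-gated channel gene, was higher (0.997, SE 0.20). Of 21 TGF-beta and BMP genes, Smad1, a BMP effector, read 1.77, 3.18, 2.3005 and 2.58 CPM in KO and 10.7, 10.3 and 5.82 CPM in WT libraries (log2 fold change -1.86, SE 0.24, adjusted p = 0.000177), while Smad3, a TGF-beta effector, read 21.1, 30.3, 24.99 and 24.02 CPM in KO and 13.5, 12.3 and 12.9 CPM in WT libraries (log2 fold change 0.96, SE 0.13, adjusted p = 0.00027). Their groups were separate and the directions opposite. Dtx1, a regulator of Notch signalling, read 165, 172, 178 and 176 CPM in KO and 211, 247 and 231 CPM in WT libraries (log2 fold change -0.41, SE 0.08, adjusted p = 0.00539), one of 2 lower calls among 24 Notch genes. Of 27 WNT genes, 2 were lower: Celsr1 (-1.07, SE 0.12), of the planar cell polarity pathway, and Wnt10a, a secreted ligand (-1.51, SE 0.22).

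Among transcription factors, the homeobox list held the most calls. Of 22 tested homeobox and POU factors, 7 were lower and 0 higher, with a median of -0.24. The number of lower calls was 5 without KO replicate 5. Pou6f1, a POU factor gene, read 29.6, 34.1, 29.8 and 34.4 CPM in KO and 58.3, 53.6 and 58.02 CPM in WT libraries (log2 fold change -0.82, SE 0.09, adjusted p = 6.64e-05). Hhex, a repressor gene needed for memory B cells, read 18.7, 20.6, 19.4 and 17.9 CPM in KO and 31.5, 27.1 and 39.8 CPM in WT libraries (log2 fold change -0.77, SE 0.12, adjusted p = 0.0012), and Zhx2, a zinc finger and homeobox repressor gene, read 30.3, 32.3, 30.8 and 31.02 CPM in KO and 46.1, 47.8 and 38.8 CPM in WT libraries (log2 fold change -0.51, SE 0.10, adjusted p = 0.00399). No KO library of these 3 reached the WT range. Zeb2, Meis3 and Hopx were lower too. Among KLF, SP and EGR factors, the immediate early genes Egr1 and Egr2 were the only calls of 22, both lower, and Egr1 read 50.02, 61.1, 43.7 and 52.1 CPM in KO and 85.1, 78.1 and 76.8 CPM in WT libraries. Tox and Tox2 were the 2 calls among 19 HMG-box factors, and Tox read 24.7, 19.5, 20.04 and 20.6 CPM in KO and 42.8, 33.9 and 31.8 CPM in WT libraries (log2 fold change -0.77, SE 0.12, adjusted p = 0.00107). Bhlhe41 was the single call of 27 basic helix-loop-helix factors. Zbtb38, a methyl-CpG-binding zinc finger gene, read 80.03, 93.3, 85.05 and 89.7 CPM in KO and 159, 128 and 105 CPM in WT libraries (log2 fold change -0.59, SE 0.12, adjusted p = 0.00631), and Gfi1, a repressor gene, was called higher, a call that was lost on leaving out WT replicate 3 (adjusted p up to 0.0575). Of 15 IRF and interferon regulators and of 18 ETS, RUNX and GATA factors, 2 each were lower and 0 higher. Of 30 MEF2, FOX and MYB factors, 0 were called by edgeR, with 9 at an unadjusted p under 0.05, while DESeq2 called 1 higher and 1 lower and limma-voom 0.

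Metabolic enzymes held calls in both directions, and the share called was 18.8% in the phospholipid and sphingolipid list, against 6.49% over all genes. Of 31 cholesterol genes, 2 were higher, Lss among them, and 0 lower, and of 32 fatty acid genes 2 were higher and 1 lower. Elovl6, which elongates long-chain fatty acids, read 44.1, 47.2, 47.8 and 43.6 CPM in KO and 29.9, 31.02 and 26.1 CPM in WT libraries (log2 fold change 0.65, SE 0.09, adjusted p = 0.000511). Phospholipid and sphingolipid enzymes gave 5 lower and 1 higher calls among 32, with 2 lower calls without WT replicate 3. Pld4, an exonuclease of endosomes despite its phospholipase name, read 224, 227, 240.2 and 249.5 CPM in KO and 329, 287 and 341 CPM in WT libraries (log2 fold change -0.44, SE 0.08, adjusted p = 0.00469), and Cers6, a ceramide synthase gene, read 13.2, 15.99, 11.5 and 9.703 CPM in KO and 29.6, 28.5 and 20.1 CPM in WT libraries (log2 fold change -1.05, SE 0.17, adjusted p = 0.00186). Of 33 genes of the TCA cycle and pyruvate metabolism, 1 was lower and 0 higher, with a median of 0.02. Bcat1, which transaminates branched-chain amino acids, was higher at 51.1, 42.8, 42.9 and 47.8 CPM in KO and 29.4, 31.7 and 32.2 CPM in WT libraries (log2 fold change 0.57, SE 0.10, adjusted p = 0.0018). Glul, the glutamine synthetase gene, read 103, 98.96, 112 and 103 CPM in KO and 134, 143 and 141 CPM in WT libraries (log2 fold change -0.42, SE 0.08, adjusted p = 0.00395), and Ahcyl1, a relative of the enzyme that clears S-adenosylhomocysteine, read 111, 110.5, 102 and 101 CPM in KO and 139, 144 and 148 CPM in WT libraries (log2 fold change -0.43, SE 0.08, adjusted p = 0.00296). Adk, the adenosine kinase gene, was the single call of 34 nucleotide synthesis genes (0.54, SE 0.11).

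Among 23 amino acid transporters, 3 were higher and 2 lower, with a median of 0.13, and 0 were higher without WT replicate 3. Slc43a1, a sodium-independent carrier of large neutral amino acids, read 18.1, 20.2, 17.3 and 18.9 CPM in KO and 59.2, 61.7 and 65.3 CPM in WT libraries (log2 fold change -1.74, SE 0.09, adjusted p = 3.46e-08). Slc7a7, a cationic amino acid exchanger, read 14.9, 13.2, 9.24 and 10.2 CPM in KO and 26.4, 29.4 and 21.03 CPM in WT libraries (log2 fold change -1.11, SE 0.16, adjusted p = 0.000793). The 3 higher genes were Slc1a4, Slc43a3 and Slc7a3, each of which lost its call without WT replicate 3 and some of them without other libraries. Other transporters gave 3 higher and 4 lower calls among 40, with 2 lower calls without KO replicate 5 or WT replicate 3 or 4 and 1 higher call without KO replicate 4 or 5 or WT replicate 3 or 4. Slc41a1, a magnesium transporter, read 44.5, 65.7, 42.6 and 46.6 CPM in KO and 94.4, 94.8 and 88.1 CPM in WT libraries (log2 fold change -0.89, SE 0.13, adjusted p = 0.00079), with KO replicate 3 above the other KO libraries, and Slc30a4, a zinc exporter, read 14.9, 15.4, 16.3 and 19.2 CPM in KO and 8.18, 9.65 and 9.42 CPM in WT libraries (log2 fold change 0.86, SE 0.13, adjusted p = 0.000995). Iron and redox genes gave 2 higher and 5 lower calls among 31, with 3 lower calls without KO replicate 3, 4 or 5 or WT replicate 3 or 4. Tfrc, by which dividing cells take up iron, and Gclc, the rate-limiting enzyme of glutathione synthesis, were higher. Gclc read 78.5, 76.9, 72.6 and 74.7 CPM in KO and 61.5, 55.3 and 47.3 CPM in WT libraries (log2 fold change 0.47, SE 0.09, adjusted p = 0.00655). Gstt1, a glutathione transferase gene, read 12.2, 8.898, 6.52 and 7.09 CPM in KO and 23.9, 26.6 and 26.4 CPM in WT libraries (log2 fold change -1.56, SE 0.18, adjusted p = 0.000115). Slc40a1, the iron exporter ferroportin, and Hmox1, heme oxygenase, were lower, and both are in the macrophage marker list.

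Several genes of membrane traffic and of the lysosome were lower. Of 39 genes of membrane traffic and exocytosis, 10 were lower and 0 higher, with a median of -0.14. The number of lower calls was 7 without WT replicate 3 and between 7 and 11 in the 7 fits that left out 1 library. S100a10, which forms a complex with annexin A2 at membranes, read 12.9, 14.3, 14.8 and 15.96 CPM in KO and 29.3, 36.3 and 44.9 CPM in WT libraries (log2 fold change -1.34, SE 0.13, adjusted p = 3.01e-05). Anxa4, a calcium-dependent membrane-binding protein gene, read 11.3, 8.54, 13.001 and 9.602 CPM in KO and 17.98, 19.97 and 19.2 CPM in WT libraries (log2 fold change -0.84, SE 0.14, adjusted p = 0.0018). The KO and WT libraries of each gene were apart. Vamp5, Stx11, Syt11, Unc13a, S100a6, Anxa6 and Anxa5 were lower as well. Of 34 lysosomal genes, 5 were lower and 1 higher, with a median of -0.11 and 2 lower calls without KO replicate 5 or WT replicate 4. Psap, the precursor of the saposins that assist sphingolipid breakdown, read 349, 403, 415 and 412 CPM in KO and 554, 524 and 617 CPM in WT libraries (log2 fold change -0.52, SE 0.09, adjusted p = 0.0022). The cathepsin genes Ctss, Ctsb and Ctsc were the other lower calls, and none of the 3 was called without WT replicate 4. Gla, a lysosomal galactosidase gene, was higher at 13.04, 16.2, 15.4 and 16.3 CPM in KO and 7.93, 7.0998 and 9.13 CPM in WT libraries (log2 fold change 0.92, SE 0.14, adjusted p = 0.000768). Lysosomal genes are expressed by macrophages as well, whose markers were lower in the same libraries.

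Among genes of protein turnover and synthesis, the share called was 17.6% in the peptide loading list, against 6.49% over all genes. It was 2.86% among translation factors, 4.88% among splicing factors and 3.03% in the unfolded protein response list. Of the 31 subunits of the constitutive 26S proteasome, 0 were called by edgeR, 0 by DESeq2 and 0 by limma-voom, and 0 had an unadjusted p under 0.05, with a median of 0.01. Among 17 genes of the immunoproteasome and of peptide loading on MHC class I, 3 were lower (B2m, Psmb9 and Tapbp), 0 higher, and the median was -0.17. Psmb9, an interferon-induced catalytic subunit gene, read 306, 298, 276 and 277 CPM in KO and 359, 381 and 386 CPM in WT libraries (log2 fold change -0.38, SE 0.08, adjusted p = 0.00796), and its exons overlap those of Tap1 on the other strand. Tapbp, the gene of the peptide-editing chaperone tapasin, changed by -0.30 (SE 0.08), and the call of Tapbp was lost on leaving out KO replicate 4 or 5 or WT replicate 1, 3 or 4 (adjusted p up to 0.107). The difference between the 2 lists was not tested. Autophagy (31 genes), tRNA synthetase (24) and ribosome biogenesis (36) lists held 0 calls, with 3, 3 and 2 members at an unadjusted p under 0.05 in edgeR's test. DESeq2 called 1, 1 and 0 members of these lists higher and limma-voom 0 of each. Translation factors held 1 higher call of 35 and splicing factors 1 higher and 1 lower of 41. The lower splicing gene, the imprinted Snrpn, read 2.101, 1.05, 1.19 and 0.502 CPM in KO and 4.54, 4.01 and 3.26 CPM in WT libraries (log2 fold change -1.70, SE 0.34, adjusted p = 0.00717), and it was the 1 call among 19 imprinted genes.

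Calls among chromatin regulators lay in the polycomb (10.8% called), cohesin (7.14%) and deacetylase (2.56%) lists, against 6.49% over all genes. Of 37 polycomb genes, 2 were higher, Phf19 among them, and 2 lower, Bcor and Jarid2. Bcor lost its call on leaving out KO replicate 2, 3 or 5 or WT replicate 1 or 3. Jarid2 lost its call on leaving out KO replicate 2, 4 or 5 or WT replicate 1, 3 or 4. By limma-voom, 2 polycomb genes were higher and 0 lower. Of 43 genes of SWI/SNF and other remodellers, 0 were called by edgeR, DESeq2 or limma-voom, with 4 at an unadjusted p under 0.05 in edgeR's test. In this remodeller list 33 of the 43 values were positive, with a median of 0.06, against 51.7% positive over all genes tested. None of 38 acetyltransferase, bromodomain and methyltransferase genes passed the test either, but 34 of the 38 had positive values. Their median was 0.14, and 12 had an unadjusted p under 0.05 in edgeR's test, against 19.9% of all genes. The summed level of these 38 genes overlapped between the groups, at 5301 to 7028 CPM in KO and 5268 to 5617 CPM in WT libraries. DESeq2 called 2 of them higher and limma-voom 0. Crebbp, a histone acetyltransferase gene that is often mutated in GC lymphomas, read 73.5, 114, 80.5 and 96.8 CPM in KO and 69.5, 71.2 and 67.999 CPM in WT libraries (log2 fold change 0.39, SE 0.13, adjusted p = 0.0885), and KO replicate 2 lay close to the WT libraries. Among 39 histone deacetylase and demethylase genes, Hdac5 was the single call, at 56.4, 66.3, 64.6 and 67.8 CPM in KO and 46.04, 49.1 and 49.5 CPM in WT libraries (log2 fold change 0.40, SE 0.09, adjusted p = 0.0112), and it lost its call on leaving out WT replicate 1 (adjusted p up to 0.0646). Of 28 cohesin, condensin and CTCF genes, Esco2 and Ldb1 were higher. Esco2, which acetylates cohesin in S phase, read 139, 133, 111 and 129.8 CPM in KO and 95.4, 96.8 and 89.03 CPM in WT libraries (log2 fold change 0.45, SE 0.09, adjusted p = 0.00647). Ldb1, which joins enhancers to promoters in a loop, read 290.2, 291, 267 and 311 CPM in KO and 225, 197 and 241 CPM in WT libraries (log2 fold change 0.39, SE 0.09, adjusted p = 0.015), and it lost its call on leaving out KO replicate 5 or WT replicate 3 (adjusted p up to 0.0988). The 15 germline and the 32 p53 target genes tested each gave 2 higher and 0 lower calls. Msh5, a meiotic mismatch repair homologue, read 25.7, 31.8, 29.3 and 31.3 CPM in KO and 21.2, 18.2 and 20.6 CPM in WT libraries (log2 fold change 0.56, SE 0.11, adjusted p = 0.00539), and Plk2, a kinase gene induced by p53, read 8.84, 10.4, 10.2 and 10.1 CPM in KO and 6.25, 5.18 and 5.53 CPM in WT libraries (log2 fold change 0.81, SE 0.15, adjusted p = 0.00333). Among 38 factors of antibody mutation and repair, H2afx, the histone variant gene of the DNA damage response, was the single call, at 443, 366, 414 and 406 CPM in KO and 537, 524 and 518 CPM in WT libraries (log2 fold change -0.37, SE 0.08, adjusted p = 0.0132). Of 31 cell death genes, 3 were lower and 0 higher. Casp4 was one of them, and its call was lost in 6 of the 7 fits that left out a library. The list held 1 lower call without KO replicate 4 or 5.

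Called genes that lie side by side were collected as runs of at least 3 consecutive tested genes with the same call. There were 9 such runs of lower and 2 of higher genes, and the genes given here in full were chosen after their values were seen. The longest, on chromosome 6 from 48684549 to 48766519 in GRCm38, held 7 lower genes of the GIMAP cluster, among them the antisense gene Gimap1os. A run of 4 on chromosome 1 (131638306 to 131872887) held Ctse, Pm20d1, Slc41a1 and Rab29. Pm20d1, an enzyme gene of N-acyl amino acid metabolism, read 0.3001, 0.4597, 0.139 and 0.167 CPM in KO and 2.51, 2.59 and 1.48 CPM in WT libraries (log2 fold change -3.02, SE 0.40, adjusted p = 0.000226). Rab29, a small GTPase gene of vesicle traffic, read 13.005, 13.1, 14.01 and 12.6 CPM in KO and 20.5, 23.3 and 23.1 CPM in WT libraries (log2 fold change -0.76, SE 0.11, adjusted p = 0.000486). The groups of both genes were apart. A run of 4 on chromosome 4 (136647539 to 136898803) joined Ephb2 to the 3 C1q genes. Runs of 3 lower genes included Itgam, Itgax and Itgad on chromosome 7, Tesk1, Cd72 and Sit1 on chromosome 4, Hadh, Cyp2u1 and Papss1 on chromosome 3 and Cyp4v3, Fam149a and Tlr3 on chromosome 8. Sit1, an inhibitory adaptor gene of lymphocytes, read 9.77, 7.03, 12.2 and 8.46 CPM in KO and 18.4, 19.3 and 21.4 CPM in WT libraries (log2 fold change -1.07, SE 0.16, adjusted p = 0.000708), and Hadh, of fatty acid oxidation, read 41.3, 32.5, 41.6 and 33.9 CPM in KO and 61.2, 63.1 and 61.9 CPM in WT libraries (log2 fold change -0.73, SE 0.10, adjusted p = 0.000326). The higher runs were Pak6, Plcb2 and 5430417L22Rik on chromosome 2 and Ctnnal1, Tmem245 and Ptpn3 on chromosome 4. Ptpn3 lost its call without KO replicate 2, 3 or 4 or WT replicate 1, 3 or 4. For 5430417L22Rik it was lost without KO replicate 2 or 5 or WT replicate 1 or 3. Among the lower runs, Ctse and Cyp4v3 lost theirs without KO replicate 3 or 5 or WT replicate 1 or 3. C1qc lost its call without KO replicate 3, 4 or 5 or WT replicate 1 or 4, and Papss1 without WT replicate 3. Pak6, a kinase gene of the PAK family, read 3.03, 3.09, 2.47 and 3.01 CPM in KO and 0.8699, 0.796 and 0.482 CPM in WT libraries (log2 fold change 2.004, SE 0.27, adjusted p = 0.000313). Tesk1 and Cd72 have overlapping exons, so their reads cannot be told apart in counts made without strand.

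Larger changes in rarer genes made up the rest, in rankings that left out gene models, predicted genes, antigen receptor genes and Y-linked genes. In ranks 9 to 18 of the increases with at least 2 CPM, Adgb, the androglobin gene, read 5.64, 7.68, 5.89 and 6.29 CPM in KO and 2.42, 2.22 and 2.23 CPM in WT libraries (log2 fold change 1.48, SE 0.19, adjusted p = 0.000171), and Dnaic2, a dynein intermediate chain gene of cilia, read 5.902, 4.66, 4.36 and 5.39 CPM in KO and 2.32, 2.06 and 1.52 CPM in WT libraries (log2 fold change 1.36, SE 0.21, adjusted p = 0.001). Myo15b (1.31) and Creg2 (1.36) kept their call in the 7 fits that left out 1 library, and the others of this set were Ciart, Rbm44, Rgs1, Ifitm3, Cadm1 and Gna15. In the same ranks of the decreases, Reln, which encodes the extracellular matrix protein reelin, read 5.102, 4.27, 6.06 and 5.96 CPM in KO and 35.2, 43.5 and 19.7 CPM in WT libraries (log2 fold change -2.62, SE 0.25, adjusted p = 0.000228). App, the gene of the amyloid precursor protein, read 1.73, 2.27, 1.36 and 1.47 CPM in KO and 7.54, 6.44 and 6.57 CPM in WT libraries (log2 fold change -1.9995, SE 0.21, adjusted p = 3.99e-05), and Hs3st1, a heparan sulfate sulfotransferase gene, read 1.83, 1.81, 2.34 and 2.94 CPM in KO and 8.02, 8.89 and 10.98 CPM in WT libraries (log2 fold change -2.06, SE 0.20, adjusted p = 2.72e-05). Every KO library of these 3 genes lay below every WT library, because separate groups were part of the choice. Rasgef1a (-2.13), Rp1l1 (-2.56), Fam101a (-2.39), Ly6c2, Cxcl10, Tlr3 and Srgap3 completed the set. Rnf43, a ubiquitin ligase gene that removes WNT receptors, read 3.97, 4.33, 3.66 and 5.22 CPM in KO and 17.01, 13.9 and 16.4 CPM in WT libraries (log2 fold change -1.87, SE 0.16, adjusted p = 5.54e-06), and Klhl6, a ligase adaptor gene of GC B cells, was more abundant at 715, 595, 626 and 518 CPM in KO and 870.5, 901 and 789 CPM in WT libraries (log2 fold change -0.48, SE 0.10, adjusted p = 0.00979). Klhl6 lost its call on leaving out WT replicate 3 (adjusted p up to 0.0528).

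The calls were spread over the chromosomes. The share of genes called ran from 4.61% on chromosome 18 to 9.70% on chromosome 6 over the autosomes and the X chromosome. Lower calls were the majority on each of these chromosomes, from 58.5% on chromosome 2 to 87.5% on chromosome 17. Within 10 Mb of Tet2 on chromosome 3, 2 genes were higher (3.33%) and 5 lower (8.33%) of 60 tested. Together 11.7% were called there, against 7.55% on all of chromosome 3 and 6.49% over all genes tested. The difference was not tested. Protein-coding genes were called in 7.16% of 11567 cases, lncRNA genes in 3.38% of 532 and pseudogenes in 0.574% of 523, by the gene types of RefSeq. The share called was not compared between these classes at matched levels.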

How the data were processed

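Total RNA from spleen cells had been extracted with Trizol and RNeasy and made into TruSeq stranded mRNA libraries, per the labels' protocols. STAR 2.3.0e and the genome build GRCm38.p3 are named in the submitters' processing notes. The deposited values are raw counts from featureCounts 1.5.1, exons of GENCODE vM3 being summed by gene name with no strand or paired-end option, per the file headers. Total counts were 27191862 to 30434184 per library.

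From the counts, edgeR 4.0.16 (R 4.3.3, limma 3.58.1) was fitted to the 4 KO and 3 WT libraries with filterByExpr, TMM scaling and robust quasi-likelihood tests. Genes with a Benjamini-Hochberg adjusted p under 0.05 were called. The scripts were tested on simulated data. CPM in the text are TMM-normalised. The 75 gene lists, the members and the tests were chosen with earlier results of these data known. Of their 2354 entries, 2341 matched by symbol, 9 by an older or newer symbol, and 4 did not match. Named genes were up to 4 called members with the smallest p per list (2 of the smallest p where none was called), the 12 moderate (under 2-fold, at least 50 CPM, groups apart, smallest p) and 8 abundant (at least 200 CPM, largest change) genes per direction, ranks 9 to 18 of the largest changes at 2 CPM or more, and the TET genes. Some genes covered by this rule are not reported here. GIMAP members, genes in runs and genes named without values beyond this rule were added after their values were seen. Gene models, predicted genes, antigen receptor segments and Y-linked genes were left out of the rankings. Start-site windows came from RefSeq (GRCm38.p6). Alternatives were DESeq2 1.42.0, limma-voom, 2 other scalings, 2 other filters, left-out gene classes, 2 covariates, a minimum fold change, the replicate number as a block and leaving out each library. No pairing by replicate number was seen: the deviations of libraries with the same number correlated at 0.03 (replicate 3) and -0.02 (replicate 4). Libraries with different numbers correlated at -0.09 to 0.11. So few pairs cannot exclude a pairing.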

Additional observations from a re-analysis of the deposited data

Results flagged for a closer look

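For 10 of 231 named genes, 1 of the 4 KO libraries lay far from the other 3, with a gap above Dixon's 95% critical value. Chance alone flags about 1 in 20 groups, so this number is near what chance gives. They were 5430417L22Rik in KO replicate 2 (15.5 CPM, the others 12.9 to 13.05), Cd55 in KO replicate 2 (39.7 CPM, the others 53.2 to 54.6), Celsr1 in KO replicate 2 (12.2 CPM, the others 14.7 to 15.1), Creg2 in KO replicate 5 (2.38 CPM, the others 2.901 to 2.96) and Fcrla in KO replicate 4 (269.7 CPM, the others 234 to 240.0). The others were Pak6 in KO replicate 4 (2.47 CPM, the others 3.01 to 3.09), Rp1l1 in KO replicate 4 (1.15 CPM, the others 0.467 to 0.558), Stat5a in KO replicate 5 (60.3 CPM, the others 56.6 to 57.1), Stat5b in KO replicate 2 (126 CPM, the others 146 to 150.2) and Tesk1 in KO replicate 2 (13.8 CPM, the others 18.7 to 19.5). KO replicate 2 was the library apart for 5 of them. No explanation was tested.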

How the results depend on the processing

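The number of higher genes (261 with edgeR) was 443 with DESeq2, 504 with no filter on low counts and 73 with a log2 fold change of at least 1 as well. The number of lower genes (622) was 228 with that minimum, and between 569 and 861 with DESeq2, limma-voom, both other scalings, both other filters and the left-out gene classes. When the Y-linked level entered the model, 1 higher and 0 lower genes were called by edgeR (567 at an unadjusted p under 0.05), and with the macrophage marker level 5 higher and 36 lower (1675 at an unadjusted p under 0.05). The cause of these shifts was not tested, and both covariates are separate between the groups. Leaving out 1 library gave 149 to 362 higher and 453 to 582 lower genes. Of the 212 called genes named here, 154 kept their call in all 7 of these fits and 58 lost it in at least 1, with no change of direction.

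No pairing of samples by replicate number was found. With the replicate number as a block, 217 higher and 353 lower genes were called. Only replicates 3 and 4 occur in both groups. In this fit KO replicates 2 and 5 and WT replicate 1 therefore do not inform the difference between KO and WT. A smaller count cannot be told apart from the loss of these libraries. The count moved by over 1.5 times in 45 of the 98 counts above 0 by list and direction. Of the 14 such counts of at least 3 calls, the lower ones became 2 (from 5) for chemokine receptors, 2 (from 4) for semaphorin, plexin and ephrin guidance genes, 3 (from 7) for GIMAP GTPases, 1 (from 3) for PI3K, AKT and mTOR pathway, 4 (from 7) for homeobox and POU factors, 2 (from 5) for phospholipid and sphingolipid enzymes, 2 (from 4) for sugar, lactate and other transporters, 1 (from 3) for immunoproteasome and peptide loading, 2 (from 5) for lysosome and cathepsins, 3 (from 6) for complement and coagulation genes, 0 (from 3) for inflammasome, caspase and cell death genes, 4 (from 10) for membrane traffic and exocytosis and 1 (from 3) for axonemal and ciliary genes, and the higher one became 0 (from 3) for amino acid transporters.

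Some named genes changed sign. Under the Y-linked covariate these were, with their log2 fold changes, Anxa5 0.57, Arntl -0.21, Bcor 0.13, Ciart -0.25, Cr2 -1.18, Cry1 0.69, Cry2 -0.20, Ctsb 0.10, Fcer2a -0.30, Gng12 0.13, Havcr1 0.0309, Hmox1 0.28, Ifitm3 -0.70, Ighg2b 1.95, Ighg3 0.27, Klhl6 0.17, Ldb1 -0.0987, Lifr -0.29, Meis3 0.12, Msh5 -0.20, Myo15b -0.68, P2rx1 -0.88, Pear1 -0.0850, Per1 -0.00610, Plcb2 -0.18, Prf1 0.51, Rasgrp4 -0.0819, Tef -0.38, Tet2 -0.69, Tet3 -0.33, Tmem245 -0.59, Txndc5 0.46, Usp2 -0.50 and Vamp5 0.11. With the macrophage marker level as a covariate they were Arntl -0.12, Ccr3 0.33, Cd52 0.0632, Clock -0.55, Creg2 -0.42, Csf1r 0.21, Myo1f 0.0663, Per2 0.19, Pik3r6 0.000161, Tet1 0.18 and Tet3 -0.0922. With the replicate number as a block it was Nr1d2 0.0614, which was not called. Of the genes that were not called, leaving out 1 library changed the sign of Ighm (-0.0814 to 0.0644 over the 7 fits), Nr1d2 (-0.14 to 0.0555 over the 7 fits), Per3 (-0.0419 to 0.10 over the 7 fits), Tet1 (-0.20 to 0.0696 over the 7 fits) and Tet2 (-0.0299 to 0.0997 over the 7 fits). The comparison of promoter classes and its alternative thresholds were not run, since fewer than 80% of called genes had a window. Of genes below 1 CPM, 3.04% were called, with a median absolute log2 fold change of 1.97, so smaller changes in rare genes were seldom detectable at this depth.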

Other observations

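Antibody constant-region genes and circadian genes were looked at after their values had been seen. Ighg1, the constant region of the IgG1 isotype, read 1566, 1222, 1072 and 706 CPM in KO and 180.0, 131 and 137 CPM in WT libraries (log2 fold change 2.93, SE 0.31, adjusted p = 0.00344, edgeR). Every KO library lay above every WT library. Ighg2c, of the IgG2c isotype, moved the other way, at 119, 52.5, 81.3 and 55.4 CPM in KO and 736, 1528 and 786 CPM in WT libraries (log2 fold change -3.72, SE 0.45, adjusted p = 0.00964). Ighg3 was lower as well (log2 fold change -1.10, edgeR adjusted p = 0.0276), but the call of Ighg3 was lost on leaving out KO replicate 2 or 4 or WT replicate 1 or 4 (adjusted p up to 0.0998). Ighg2b stood at 875, 729, 782 and 510.2 CPM in KO and 639, 1157 and 943 CPM in WT libraries, with overlapping groups and no call (log2 fold change -0.33). Ighm, of the IgM isotype, stood at 9333, 9511, 11703 and 8784 CPM in KO and 8778, 10042 and 10369 CPM in WT libraries and was not called (log2 fold change 0.02). The IgG constant regions are similar copies, so reads can be split between them.

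Among genes of the circadian clock and its outputs, Nfil3, a repressor that binds the same sites as the activator Dbp, read 14.8, 12.7, 10.98 and 11.2 CPM in KO and 6.48, 6.005 and 6.71 CPM in WT libraries (log2 fold change 0.95, SE 0.15, adjusted p = 0.000956). Ciart, a repressor gene of the clock, was higher at 24.9, 33.4, 26.2 and 39.98 CPM in KO and 9.41, 8.06 and 16.99 CPM in WT libraries (log2 fold change 1.44, SE 0.29, adjusted p = 0.0301), but the call of Ciart was lost on leaving out KO replicate 3 or 4 or WT replicate 1 or 3 (adjusted p up to 0.106). Usp2, a ubiquitin protease gene, was higher at 30.04, 23.6, 32.03 and 28.3 CPM in KO and 22.3, 12.9 and 15.2 CPM in WT libraries (log2 fold change 0.76, SE 0.17, adjusted p = 0.0162), but the call of Usp2 was lost on leaving out WT replicate 3 or 4 (adjusted p up to 0.0747). Per1, a negative arm component of the clock, stood at 64.9, 96.2, 80.7 and 85.95 CPM in KO and 56.4, 61.3 and 71.2 CPM in WT libraries and did not pass edgeR's test (log2 fold change 0.38, adjusted p = 0.0843), nor did Dbp (-0.40), Per2 (-0.19), Arntl (0.09), Clock (0.14), Per3 (0.04), Nr1d2 (-0.05), Tef (0.16), Cry1 (-0.21) and Cry2 (0.11). The time of day at which tissue was taken is not given in the sources used here.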
